A study of Homo sapiens with 9 samples.

Results

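The genes described are 9 genes of MHC class I antigen presentation and immune checkpoint signalling, HLA-B, HLA-C, HLA-E, HLA-F, B2M, TAP1, TAP2, TAPBP and CD274, the last of which encodes PD-L1. They were found by gene name among the 58929 genes of the count table, in a list drawn up with earlier results of these data known. All 9 members passed the filter on low counts, which left 16065 genes. RNA was measured in FaDu cells, an established wild-type line of head and neck squamous cell carcinoma (HNSCC). Wild-type here means without an introduced knockout, since the study lists tumor mutations of its screened lines, FaDu among them. Of the 9 libraries, 3 come from cells given the vehicle DMSO, 3 from cells given 250 nM samuraciclib and 3 from cells given 250 nM YKL-5-124. CDK7, which activates cell cycle CDKs and phosphorylates RNA polymerase II, is the target of each compound, samuraciclib competing with ATP and YKL-5-124 binding covalently. Exposure is given as 48 h in the protocol of the labels and as 72 h in the series design. The study's methods call the 3 libraries of a condition biological replicates, and all come from 1 line.

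MHC class I molecules show peptides from inside the cell to CD8+ T cells. A heavy chain such as HLA-B or HLA-C pairs with beta-2-microglobulin, encoded by B2M. Peptides are carried into the endoplasmic reticulum by the transporter TAP, a heterodimer of TAP1 and TAP2, and tapasin, encoded by TAPBP, holds the empty class I molecule beside it. HLA-E is recognized by NKG2A and NKG2C receptors of natural killer cells, and HLA-F is a little-expressed class I molecule with natural killer cell receptors among its partners. PD-L1 on tumor cells binds PD-1 on T cells and restrains them. Interferon gamma is known to raise most of these genes, in part through IRF1, and the transactivator NLRC5 acts on class I promoters.

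Counts per library ranged from 18096180 to 28018126 in DMSO, from 19346587 to 22111350 with samuraciclib and from 18264302 to 24613892 with YKL-5-124. In 3 libraries (DMSO 3, samuraciclib 2 and YKL-5-124 2) the non-coding RNA RN7SL2 stood at 24.9 to 59.3 CPM (counts scaled to library size with TMM factors) against 696 to 981 CPM in the other 6. Squamous markers summed to 6744 to 7788 CPM over the 9 libraries, with none of the 12 at 0. Leukocyte markers summed to 2.80 to 3.92 CPM in DMSO, 3.46 to 4.11 CPM with samuraciclib and 4.23 to 5.16 CPM with YKL-5-124. The pan-leukocyte gene PTPRC had 0 or 1 counts per library, and 4 of the 15 markers had 0 in every library. Stromal and endothelial markers summed to 35.3 to 35.9 CPM in DMSO, 26.2 to 28.6 CPM with samuraciclib and 31.3 to 33.0 CPM with YKL-5-124, with 2 of 11 at 0 throughout. A single gene made up most of each sum. In the stromal and endothelial list it was CDH5, with means of 30.0 CPM in DMSO, 21.1 with samuraciclib and 26.4 with YKL-5-124. In the leukocyte list it was CD14, at 2.77, 2.41 and 3.52 CPM in the same order. The part of these sums in the results was not tested. In cultures, less RNA per cell and fewer expressing cells cannot be told apart.

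To be called, a gene needed an adjusted p (edgeR's quasi-likelihood test, Benjamini-Hochberg over all genes tested) under 0.05 together with a log2 fold change larger than 0.5 in either direction. HLA-F and CD274 rose with YKL-5-124, 2 of 9 members, beside 21.8% of all genes called in either direction and 11.9% called higher. With samuraciclib the same genes, HLA-F and CD274, rose, beside 17.7% of all genes called and 8.17% called higher. None of the 9 was called lower than in DMSO with either compound, beside 9.93% of all genes for YKL-5-124 and 9.55% for samuraciclib, and DESeq2 called none lower either. At an unadjusted p under 0.05 by edgeR, 2 members (TAP2 and TAPBP) were lower with YKL-5-124 and 3 (TAP2, HLA-C and HLA-E) with samuraciclib. Between the compounds 1 member, CD274, was called, lower with YKL-5-124 than with samuraciclib, beside 6.92% of all genes called, 4.46% higher and 2.46% lower. The same members were called in the 6 libraries not low in RN7SL2. The median log2 fold change of the members was 0.031 with YKL-5-124 and -0.060 with samuraciclib, beside 0.014 and 0.0012 over all genes tested. Both comparisons with DMSO share the 3 DMSO libraries.

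Below the fold threshold, more members differed. With YKL-5-124 6 of 9 members passed the adjusted p alone, 4 higher and 2 lower, beside 49.3% of all genes tested. With samuraciclib 6 passed it, 3 higher and 3 lower, beside 44.1%. Between the compounds 4 passed it, 2 higher and 2 lower with YKL-5-124, beside 24.9%. Groups did not overlap in 5 of 9 members with YKL-5-124 against DMSO, in 7 with samuraciclib against DMSO and in 5 between the compounds, beside 56.8%, 52.9% and 38.7% of all genes.

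**Figure D1:**
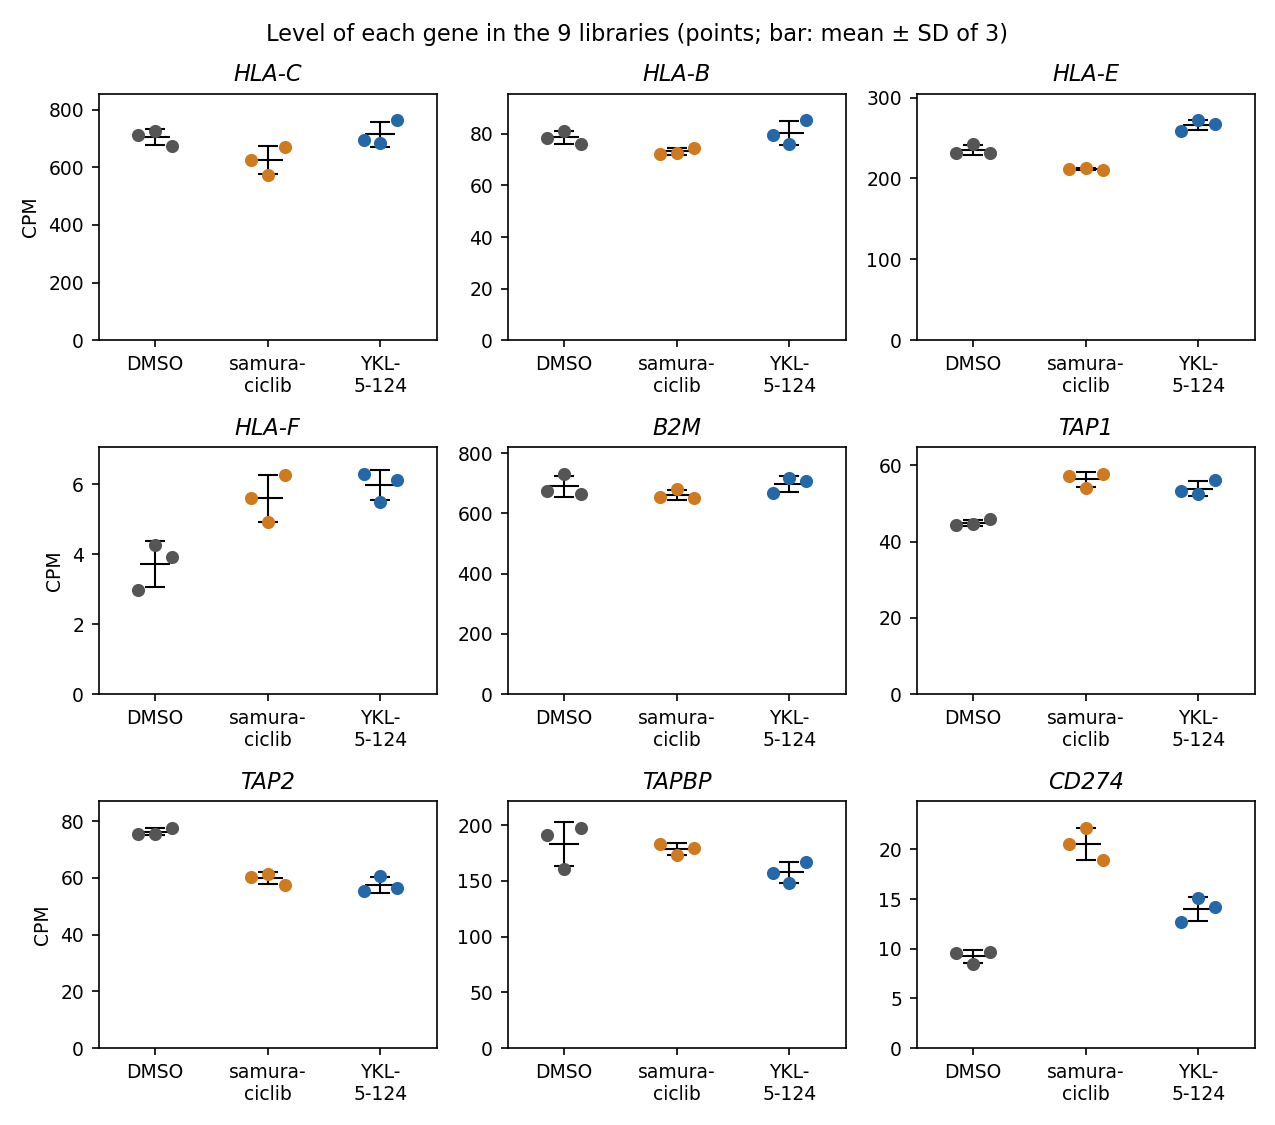
Level of each of the 9 genes in CPM (vertical axes, each starting at 0) in the 3 DMSO, 3 samuraciclib and 3 YKL-5-124 libraries; points are libraries, bars the mean ± SD. CD274 climbed from 8.47 to 9.64 CPM in DMSO to 18.9 to 22.1 CPM with samuraciclib, TAP1 lay above and TAP2 below DMSO in every treated library, and B2M overlapped between all groups.

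Levels per gene length (CPM divided by kilobases of gene model, RPKM) placed the members of DMSO cells in the order HLA-C, B2M, HLA-E, TAPBP, HLA-B, TAP2, TAP1, CD274 and HLA-F. The DMSO means were 281 RPKM for HLA-C, 114 for B2M, 79.1 for HLA-E, 36.2 for TAPBP and 25.8 for HLA-B. They were 11.9 RPKM for TAP2, 9.36 for TAP1, 2.25 for CD274 and 0.856 for HLA-F. Over this range the heavy chain HLA-C and its light chain were the best measured, with 11775 to 18328 counts per library, and HLA-F the least, with 52 to 140. TAP1 stood below TAP2 per length in DMSO and above it with both inhibitors, at 11.7 against 9.36 RPKM with samuraciclib and 11.2 against 9.00 RPKM with YKL-5-124. The other members kept their place in the order in all 3 groups.

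Of the 9 genes, 7 lie on chromosome 6 in GRCh38, the assembly of the files, where the MHC is located. The gene models of the files overlap in places. HLA-B (ENSG00000234745, chr6:31269491-31357188, minus strand) has a long model that covers 78.1% of the span of HLA-C (ENSG00000204525, chr6:31268749-31272130) on the same strand. PSMB9 covers all of TAP1 (ENSG00000168394, chr6:32845209-32853978, minus strand) on the opposite strand. The antisense gene HLA-F-AS1, with 3 to 17 counts per library, covers 75.7% of HLA-F (ENSG00000204642, chr6:29722775-29738528, plus strand). Since the strand setting and the treatment of reads with several matches are not given in the sources used here, reads shared by overlapping or near-identical HLA genes make the values of HLA-B, HLA-C, HLA-E and HLA-F uncertain, and those of TAP1 too, with PSMB9 at 257 to 428 counts per library.

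The promoters of class I genes are known to carry an interferon-stimulated response element (ISRE) and a kappaB site, and those of HLA-B and HLA-F are shown because 1 of these heavy chains rose and the other did not pass the test while their promoters are alike. Those of B2M, TAP1, TAP2 and CD274 are shown because all 4 hold the letters of an ISRE core, while TAP1 was higher than DMSO, TAP2 lower, CD274 called higher and B2M overlapped DMSO. Each sequence is the stretch of 250 bases before the RefSeq start (GRCh38.p14), read 5′ to 3′ along the strand of the gene. Capitals mark the ISRE core (GAAA, then 2 bases of any kind, then GAAA) and the kappaB-like letters (GGG, 2 bases of any kind, T, 2 bases of any kind, CC) on either strand, and 2 overlapping matches appear as 1 run.
HLA-B (chr6:31357180-31357429, minus strand): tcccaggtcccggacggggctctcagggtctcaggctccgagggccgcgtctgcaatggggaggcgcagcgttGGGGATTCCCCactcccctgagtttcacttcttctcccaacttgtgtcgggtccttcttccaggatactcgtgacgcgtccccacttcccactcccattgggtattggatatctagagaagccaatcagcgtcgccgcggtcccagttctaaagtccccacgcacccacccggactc
HLA-F (chr6:29723184-29723433, plus strand): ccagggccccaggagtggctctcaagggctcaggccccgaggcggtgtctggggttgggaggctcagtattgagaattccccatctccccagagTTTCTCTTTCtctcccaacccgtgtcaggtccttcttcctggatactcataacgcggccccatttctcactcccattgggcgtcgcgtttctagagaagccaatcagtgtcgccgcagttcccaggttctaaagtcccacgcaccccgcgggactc
B2M (chr15:44711267-44711516, plus strand): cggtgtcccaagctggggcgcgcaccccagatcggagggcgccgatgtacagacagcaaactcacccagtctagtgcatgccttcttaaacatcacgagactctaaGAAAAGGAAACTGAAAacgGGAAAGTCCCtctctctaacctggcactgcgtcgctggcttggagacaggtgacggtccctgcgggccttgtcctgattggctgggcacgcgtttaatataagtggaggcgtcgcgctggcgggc
TAP1 (chr6:32853705-32853954, minus strand): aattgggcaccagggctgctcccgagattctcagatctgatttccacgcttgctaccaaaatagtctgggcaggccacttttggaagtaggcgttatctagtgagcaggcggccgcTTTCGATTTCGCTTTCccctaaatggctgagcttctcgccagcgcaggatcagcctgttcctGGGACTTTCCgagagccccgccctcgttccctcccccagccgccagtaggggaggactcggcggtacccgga
TAP2 (chr6:32838740-32838989, minus strand): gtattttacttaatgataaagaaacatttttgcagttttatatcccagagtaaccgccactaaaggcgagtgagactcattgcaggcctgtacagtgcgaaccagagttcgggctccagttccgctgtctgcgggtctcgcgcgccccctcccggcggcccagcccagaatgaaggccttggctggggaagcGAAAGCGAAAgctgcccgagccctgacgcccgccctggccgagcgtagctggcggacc
CD274 (chr9:5450292-5450541, plus strand): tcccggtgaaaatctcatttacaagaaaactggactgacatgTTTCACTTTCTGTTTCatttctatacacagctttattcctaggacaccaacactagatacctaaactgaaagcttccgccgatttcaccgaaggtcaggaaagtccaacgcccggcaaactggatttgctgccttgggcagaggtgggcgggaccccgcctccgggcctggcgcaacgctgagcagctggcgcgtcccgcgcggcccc

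Of the 9 members, 8 had an entry among the RefSeq promoters, and HLA-E had none. In the window from 250 bases before to 50 after the start, the ISRE core was found in 6 of the 8, the promoters of HLA-F, B2M, TAP1, TAP2, TAPBP and CD274, beside 3.57% of 35116 promoters. HLA-B and HLA-C had no match to these letters in the window. In CD274 the matches began 208 and 202 bases before the start, in B2M 144 and 138, and in TAP1 134 and 128 bases before it. The kappaB-like letters were found in 5 of 8 (22% of all promoters), the cyclic AMP response element (CRE) core TGACG in 4 (24.6%) and the CCAAT box, the letters that NF-Y binds, in 5 (34.6%). TAP1 has another RefSeq start, whose window held no match to any of these motifs. That start was left out of the member counts, while the shares of all promoters count every start. In HLA-B the capital run holds 2 overlapping matches of the kappaB-like letters. HLA-B and HLA-C were 88.5% identical over the aligned window, HLA-B and HLA-F 79.7%, and the pairs between a heavy chain and any other member 47.6% to 51.3%. A match is a description of letters, and none of these data measured binding.

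**Figure D2:**
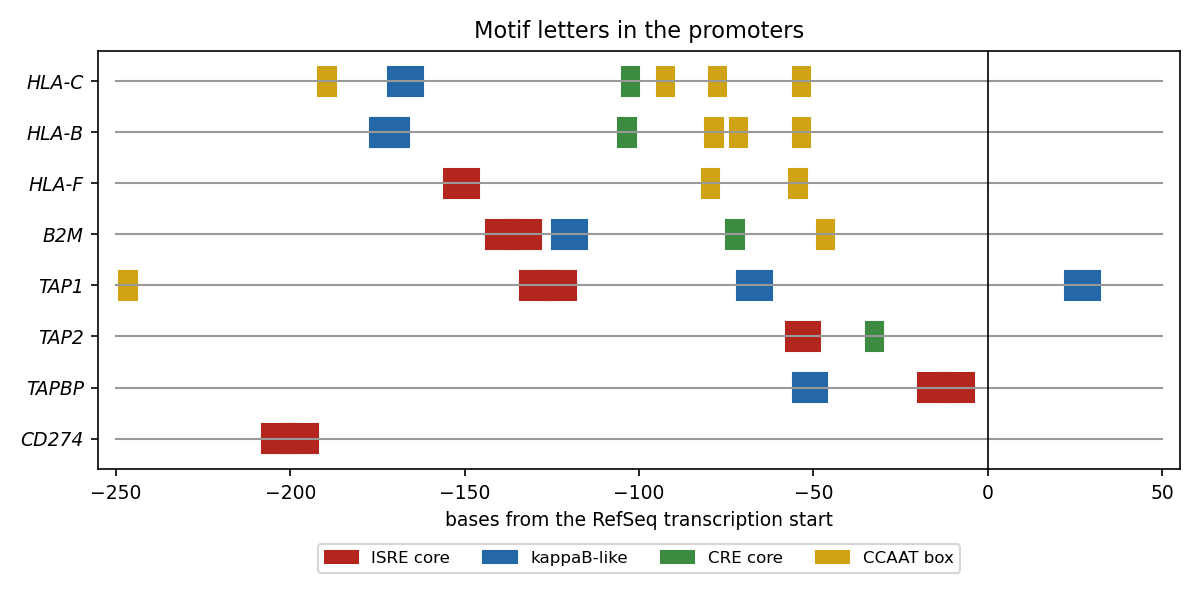
Matches to 4 motifs in the promoters of 8 members, drawn along the bases from the RefSeq start (horizontal axis, vertical line at the start), with 1 line per gene and colored boxes for matches. The ISRE core sits in all but HLA-B and HLA-C, and TAPBP and TAP2 hold theirs closest to the start.

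Of the heavy chains, HLA-C is a classical class I molecule that presents peptides to T cells and is a ligand of killer cell receptors. Its level was 713, 727 and 673 CPM in the DMSO libraries, 626, 575 and 672 CPM with samuraciclib and 694, 684 and 764 CPM with YKL-5-124. The samuraciclib libraries were all below the DMSO ones, by a narrow gap, and those of YKL-5-124 overlapped DMSO. HLA-C differed from DMSO by a log2 fold change of -0.17 ± 0.059 (SE) with samuraciclib (edgeR quasi-likelihood, adjusted p = 0.0233), short of the fold threshold. With YKL-5-124 the log2 fold change was 0.019 ± 0.059 (adjusted p = 0.812), with a 95% interval of -0.11 to 0.14. Adding the counts of the overlapping HLA-B to those of HLA-C, a setting chosen after the table was seen, gave -0.17 ± 0.058 with samuraciclib (adjusted p = 0.0254).

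HLA-B, the other classical heavy chain among the members, stood at 78.5, 81.2 and 76.2 CPM in DMSO, at 72.3, 72.6 and 74.7 CPM with samuraciclib and at 79.6, 76.0 and 85.4 CPM with YKL-5-124. As with HLA-C, the samuraciclib libraries were the lowest and those of YKL-5-124 overlapped DMSO. The log2 fold change was -0.10 ± 0.053 with samuraciclib (adjusted p = 0.129) and 0.031 ± 0.053 with YKL-5-124 (edgeR, adjusted p = 0.651). The 95% interval of the latter ran from -0.080 to 0.14, so a change of 1.5-fold lay outside it.

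HLA-E presents mainly leader peptides of other class I chains (ENSG00000204592, chr6:30489467-30494205). It was measured at 232, 243 and 232 CPM in DMSO, 211, 213 and 211 CPM with samuraciclib and 259, 272 and 267 CPM with YKL-5-124. The 3 groups did not overlap, with samuraciclib lowest and YKL-5-124 highest. Against DMSO, HLA-E was higher with YKL-5-124 by a log2 fold change of 0.18 ± 0.043 (edgeR, adjusted p = 0.00232) and lower with samuraciclib, at -0.15 ± 0.043 (adjusted p = 0.00769). Both stayed under the fold threshold. The difference between the compounds was 0.33 ± 0.043 on the log2 scale, or 1.26-fold (adjusted p = 3.18e-05), and was the lowest adjusted p of the 9 members in that comparison.

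HLA-F was the heavy chain that rose. It had 52, 80 and 104 counts in the DMSO libraries, 120, 108 and 122 with samuraciclib and 121, 140 and 126 with YKL-5-124. These correspond to 2.98, 4.26 and 3.92 CPM, to 5.61, 4.92 and 6.27 CPM and to 6.30, 5.48 and 6.13 CPM. Each treated library lay above each DMSO library, while the compounds overlapped. The increase was 1.59-fold with YKL-5-124 (log2 fold change 0.67 ± 0.15, edgeR adjusted p = 0.00126) and 1.49-fold with samuraciclib (0.58 ± 0.15, adjusted p = 0.00468). The samuraciclib call was lost without DMSO 1, at 0.45, and without samuraciclib 3, at 0.495. HLA-F-AS1, on the opposite strand, had log2 fold changes of 1.04 ± 0.48 (adjusted p = 0.0792) and 0.85 ± 0.49 (adjusted p = 0.171), and its part in the values of HLA-F was not tested.

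B2M (ENSG00000166710, chr15:44711487-44718877, plus strand), the light chain shared by class I molecules, stood at 674, 731 and 666 CPM in DMSO, 654, 681 and 652 CPM with samuraciclib and 669, 718 and 708 CPM with YKL-5-124. All 3 groups overlapped. Its log2 fold change was 0.017 ± 0.050 with YKL-5-124 (95% interval -0.088 to 0.12) and -0.060 ± 0.050 with samuraciclib (-0.17 to 0.045), with adjusted p values of 0.804 and 0.349 by edgeR. With 11775 or more counts per library, these intervals leave out a rise or fall of 1.5-fold.

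**Figure D3:**
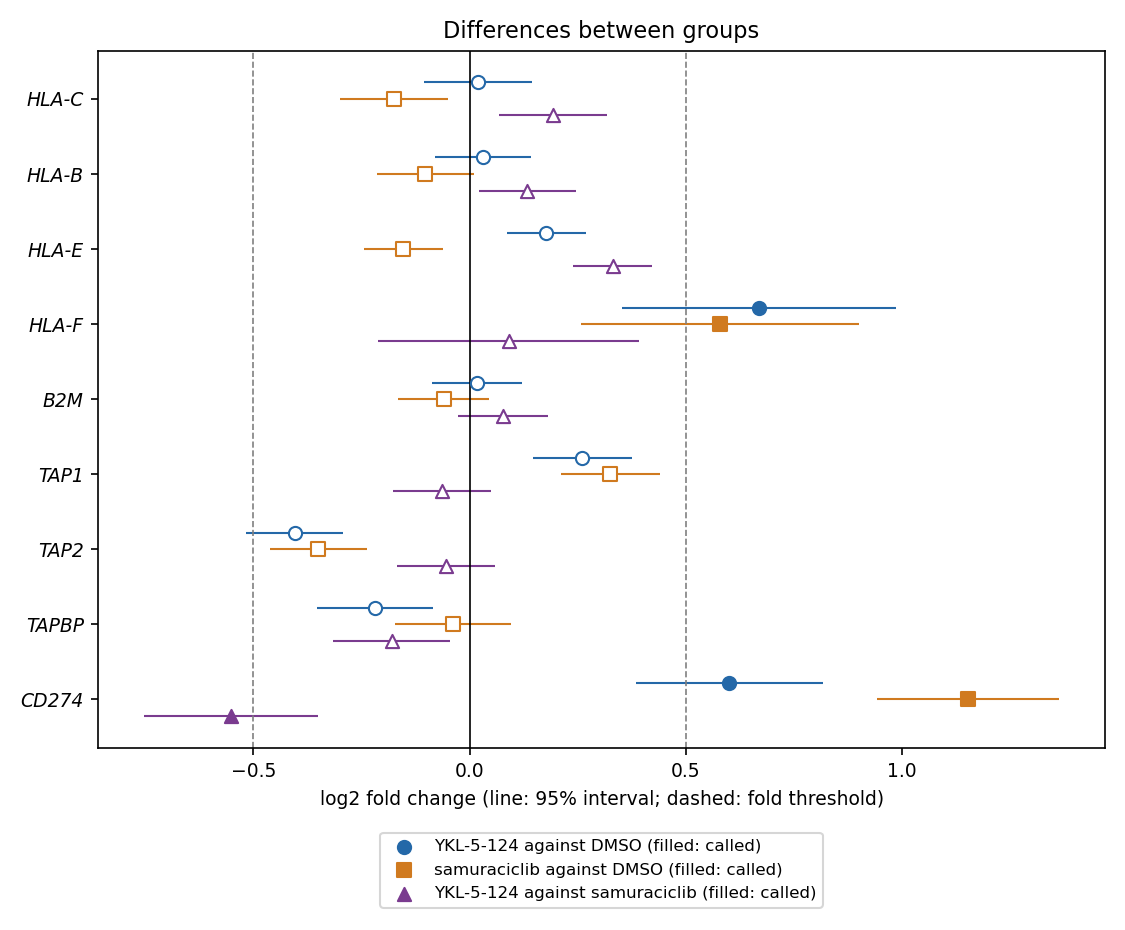
Log2 fold change of each gene (horizontal axis) with YKL-5-124 against DMSO, samuraciclib against DMSO and YKL-5-124 against samuraciclib; horizontal lines are 95% intervals, dashed lines the fold threshold of 0.5 in size and filled symbols the called genes. CD274 and HLA-F pass it against DMSO, CD274 with samuraciclib lies farthest out at 1.15, and against DMSO the intervals of TAP1 and TAP2 lie on opposite sides of 0.

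The TAP subunits differed from DMSO in opposite directions. TAP1, whose product pairs with that of TAP2 in the peptide transporter, was at 44.5, 44.6 and 45.8 CPM in DMSO, 57.3, 54.1 and 57.8 CPM with samuraciclib and 53.2, 52.5 and 56.1 CPM with YKL-5-124. Each treated library was above each DMSO library. TAP1 was 1.25-fold higher with samuraciclib (log2 fold change 0.33 ± 0.055, edgeR adjusted p = 9.37e-05) and 1.20-fold higher with YKL-5-124 (0.26 ± 0.055, adjusted p = 0.000661), both below the fold threshold. PSMB9, which overlaps it on the other strand, had -0.0045 ± 0.10 with samuraciclib (adjusted p = 0.977) and 0.20 ± 0.10 with YKL-5-124 (adjusted p = 0.112).

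TAP2 (ENSG00000204267, chr6:32821833-32838780, minus strand) was lower with both inhibitors. Its levels were 75.5, 75.4 and 77.6 CPM in DMSO, 60.4, 61.5 and 57.5 CPM with samuraciclib and 55.3, 60.8 and 56.5 CPM with YKL-5-124. No treated library reached the lowest DMSO library. The log2 fold change was -0.40 ± 0.053 with YKL-5-124, or 1.32-fold lower (edgeR, adjusted p = 5.35e-06), and -0.35 ± 0.053 with samuraciclib, or 1.27-fold lower (adjusted p = 3.38e-05). Neither passed the fold threshold. These were the lowest adjusted p of the members with YKL-5-124 and the next to lowest, after CD274, with samuraciclib.

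The ratio of TAP1 to TAP2 counts within a library does not depend on the scaling of libraries, and was chosen after the values of both genes were seen. It was 0.589, 0.591 and 0.591 in DMSO, 0.949, 0.879 and 1.01 with samuraciclib and 0.961, 0.864 and 0.994 with YKL-5-124. The ratio was thus 1.60-fold higher with samuraciclib and 1.59-fold higher with YKL-5-124, with no overlap with DMSO. With 3 libraries against 3, a two-sided exact permutation test gave p = 0.1 for each, the smallest p this design allows. Between the compounds the ratio overlapped, at 0.940 ± 0.068 with YKL-5-124 and 0.945 ± 0.063 with samuraciclib (SD, n = 3, exact permutation p = 0.9).

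**Figure D4:**
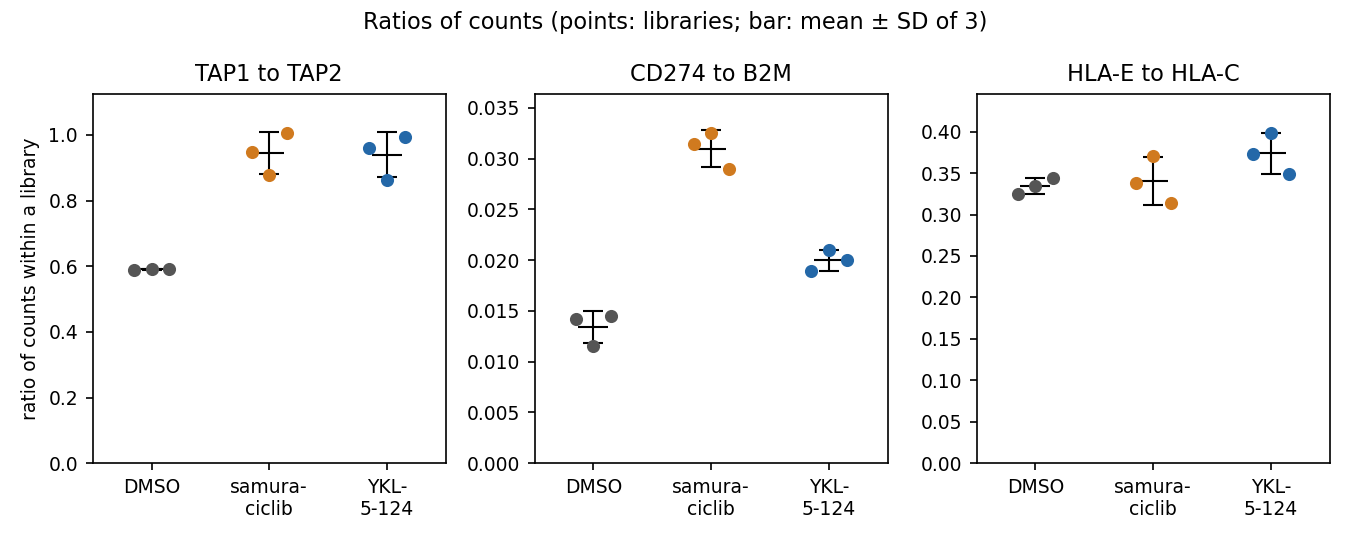
Ratio of counts within a library (vertical axes, starting at 0) for TAP1 to TAP2, CD274 to B2M and HLA-E to HLA-C; points are the 3 libraries of each group, bars the mean ± SD. TAP1 to TAP2 sits near 0.59 in DMSO and at 0.864 or more in every treated library, and CD274 to B2M is highest with samuraciclib.

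TAPBP (ENSG00000231925, chr6:33299694-33314387, minus strand) encodes tapasin, the chaperone that joins class I molecules to the transporter. It stood at 191, 160 and 197 CPM in DMSO, 183, 173 and 180 CPM with samuraciclib and 157, 148 and 167 CPM with YKL-5-124. DMSO 2 lay well below the other 2 DMSO libraries, and both treated groups overlapped DMSO. The log2 fold change was -0.22 ± 0.064 with YKL-5-124 (edgeR, adjusted p = 0.00887) and -0.038 ± 0.064 with samuraciclib (adjusted p = 0.661). The first was under the fold threshold, and the second turned to 0.021 when counts were scaled by library size alone.

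CD274 (ENSG00000120217, chr9:5450503-5470566, plus strand), the gene of PD-L1, had the largest change of the 9 with samuraciclib and, after HLA-F, the next largest with YKL-5-124. It had 167, 159 and 256 counts in DMSO, 439, 486 and 368 with samuraciclib and 244, 385 and 291 with YKL-5-124. Scaled for depth, these were 9.56, 8.47 and 9.64 CPM, 20.5, 22.1 and 18.9 CPM, and 12.7, 15.1 and 14.2 CPM. The 3 groups were ordered DMSO, YKL-5-124 and samuraciclib without overlap. CD274 rose 2.22-fold with samuraciclib (log2 fold change 1.15 ± 0.10, edgeR adjusted p = 4.61e-08) and 1.52-fold with YKL-5-124 (0.60 ± 0.10, adjusted p = 9.57e-05). Ordered from the highest to the lowest log2 fold change, it ranked 388 of 16065 genes with samuraciclib and 2099 with YKL-5-124. Both calls held when each library was left out in turn. Per B2M count, CD274 was at 0.0134 ± 0.0016 in DMSO, 0.0310 ± 0.0018 with samuraciclib and 0.0200 ± 0.0010 with YKL-5-124 (SD, n = 3). The ratio, chosen after the values were seen, was 2.31-fold and 1.49-fold that of DMSO, with an exact permutation p = 0.1 for each, the smallest possible.

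Set directly against each other at the same dose, the covalent inhibitor YKL-5-124 and the ATP-competitive samuraciclib differed in CD274 among the called members. CD274 was 1.47-fold lower with YKL-5-124 (log2 fold change -0.55 ± 0.095, 95% interval -0.75 to -0.35, edgeR adjusted p = 0.000438, over all genes tested). This lies close to the fold threshold, and the call was lost, at an adjusted p of 0.0013 to 0.0040, without samuraciclib 2 (-0.49), without YKL-5-124 1 (-0.49) and when counts were scaled by library size alone (-0.48). For HLA-F the difference was 0.090 ± 0.14 with an interval of -0.21 to 0.39 (adjusted p = 0.697), an interval wide enough for a difference in either direction. In TAP1 it was -0.064 ± 0.054, with an interval of -0.18 to 0.049, and in TAP2 -0.055 ± 0.054 (-0.17 to 0.058). HLA-C was higher with YKL-5-124 by 0.19 ± 0.059 (adjusted p = 0.0232) and TAPBP lower, at -0.18 ± 0.064 (adjusted p = 0.0477). HLA-B had 0.13 ± 0.053 (adjusted p = 0.0744) and B2M 0.077 ± 0.050 (adjusted p = 0.284).

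Other genes of the pathway were followed in 11 lists of 181 genes, 135 of which were tested. The counts called in each list stand beside the shares over all genes tested. These were 11.9% higher and 9.93% lower with YKL-5-124, and 8.17% higher and 9.55% lower with samuraciclib. Between the compounds they were 4.46% higher and 2.46% lower. No list was tested against these shares. Of 19 genes of peptide supply and loading, 0 rose and 1 fell with YKL-5-124, and 0 rose and 3 fell with samuraciclib, with medians of -0.085 and -0.050. At an unadjusted p under 0.05 by edgeR, 2 of them were higher with YKL-5-124 and 3 with samuraciclib, and DESeq2 called none higher. GANAB, the catalytic subunit of glucosidase II in glycoprotein folding, fell with YKL-5-124 (-0.66 ± 0.051, adjusted p = 6.98e-09) and with samuraciclib (-0.65 ± 0.051, adjusted p = 1.21e-08). PSMB8, an immunoproteasome subunit, fell with samuraciclib from 42.1 ± 2.44 to 28.1 ± 2.23 CPM (SD, n = 3), a log2 fold change of -0.58 ± 0.078 (adjusted p = 7.81e-06). With YKL-5-124 it had -0.46 ± 0.077 (adjusted p = 7.28e-05), which passed the threshold without DMSO 3 (-0.505), without YKL-5-124 2 (-0.54) and in the 6 libraries not low in RN7SL2 (-0.58). PSMB10, the other inducible subunit that was called, fell with samuraciclib (-0.65 ± 0.13, adjusted p = 0.000409) and had -0.14 ± 0.12 with YKL-5-124 (adjusted p = 0.36). The difference between the compounds in PSMB10 was 0.51 ± 0.13 (adjusted p = 0.00724), and was under the threshold by DESeq2 (0.4997), without samuraciclib 1 (0.43) and without YKL-5-124 3 (0.43). ERAP1, which trims peptides, had -0.27 ± 0.065 with YKL-5-124 and -0.024 ± 0.064 with samuraciclib, and CALR, the chaperone calreticulin, -0.41 ± 0.062 and -0.22 ± 0.062.

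Factors of class I promoters were called in 4 of 17 with each compound, 1 higher and 3 lower, with medians of -0.020 for YKL-5-124 and -0.060 for samuraciclib. NFYA, a subunit of NF-Y, fell from 75.9 ± 6.44 CPM in DMSO to 35.4 ± 0.858 CPM with YKL-5-124 (log2 fold change -1.10 ± 0.064) and to 40.9 ± 1.37 CPM with samuraciclib (-0.89 ± 0.063). The RFX subunits RFXANK (-0.69 ± 0.078 with YKL-5-124 and -0.90 ± 0.079 with samuraciclib) and RFXAP (-0.72 ± 0.11 and -0.65 ± 0.11) fell as well, all with adjusted p of 7.43e-05 or lower. NLRC5, the class I transactivator, rose with YKL-5-124 from 44.3 ± 1.99 to 63.4 ± 2.33 CPM (0.52 ± 0.056, adjusted p = 4.54e-07), a call that was lost without DMSO 3 (0.48) and without YKL-5-124 1 (0.496). With samuraciclib NLRC5 had 0.094 ± 0.057 (adjusted p = 0.19), and it was higher with YKL-5-124 than with samuraciclib by 0.42 ± 0.055 (adjusted p = 3.05e-05), short of the fold threshold. CIITA, the class II transactivator, was called higher with samuraciclib (0.71 ± 0.27, adjusted p = 0.0444) on 14 to 42 counts per library in both groups, and lost the call by DESeq2 (adjusted p = 0.131) and without any 1 of the 6 libraries compared (0.0548 to 0.141). IRF1 had -0.0094 ± 0.076 with YKL-5-124 and 0.018 ± 0.076 with samuraciclib.

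Interferon receptors and JAK-STAT genes had 2 of 16 higher and 1 lower with each compound. SOCS3, an inhibitor of cytokine receptor signalling, fell with YKL-5-124 (-0.94 ± 0.069, adjusted p = 3.28e-09) and with samuraciclib (-0.53 ± 0.067, adjusted p = 4.11e-06), the latter under the threshold without DMSO 3 (-0.49). The kinase gene JAK2 rose with YKL-5-124 (0.52 ± 0.082, adjusted p = 4.05e-05), but not without DMSO 2 (0.47) or YKL-5-124 2 (0.47), and had 0.30 ± 0.083 with samuraciclib. IRF9 rose with YKL-5-124 (0.64 ± 0.21, adjusted p = 0.0162) and with samuraciclib (0.74 ± 0.21, adjusted p = 0.00704), the first lost without DMSO 1 (0.46, adjusted p = 0.0859) or DMSO 2 (0.57, adjusted p = 0.0667). With samuraciclib the IRF9 levels overlapped DMSO, at 3.56 to 5.56 CPM against 1.89 to 3.58 CPM. IFNAR2 was called with samuraciclib at 0.64 ± 0.25 (adjusted p = 0.0483) from 18 to 40 counts per library, and not by DESeq2 (adjusted p = 0.147) or without DMSO 1, DMSO 2, YKL-5-124 3 or any samuraciclib library (0.0539 to 0.159). JAK1 was higher by 0.44 ± 0.046 with YKL-5-124 and 0.42 ± 0.046 with samuraciclib, under the fold threshold.

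Interferon-stimulated genes went in both directions. With YKL-5-124 3 of 30 rose and 5 fell, and with samuraciclib 3 rose and 6 fell, with medians of -0.084 and -0.13. IFI44 fell from 55.5 ± 2.38 CPM to 25.9 ± 0.828 CPM with YKL-5-124 (-1.10 ± 0.066) and to 24.3 ± 1.67 CPM with samuraciclib (-1.19 ± 0.067). IFIT3, which takes part in antiviral RNA sensing, fell with YKL-5-124 (-0.69 ± 0.070) and samuraciclib (-0.96 ± 0.072), as did the membrane protein gene IFITM3 (-0.83 ± 0.061 and -0.68 ± 0.060). Against this direction, the guanylate-binding protein genes GBP1 and GBP2 rose. GBP1 went from 20.5 ± 3.13 CPM to 43.3 ± 4.20 CPM with YKL-5-124 (1.07 ± 0.092) and to 46.5 ± 1.18 CPM with samuraciclib (1.17 ± 0.092). GBP2 went from 14 to 22 counts per DMSO library to 76 to 98 with YKL-5-124 (2.14 ± 0.20) and 104 to 109 with samuraciclib (2.49 ± 0.19). IFI27 rose with YKL-5-124 (0.58 ± 0.15, adjusted p = 0.00359, under the threshold at 0.49 without YKL-5-124 2) and TRIM22 with samuraciclib (0.82 ± 0.13, adjusted p = 4.83e-05). Between the compounds 3 were higher with YKL-5-124, DDX60 (0.83 ± 0.086), IFI6 (0.61 ± 0.11) and OASL (0.51 ± 0.094), and IFITM2 was lower (-0.61 ± 0.12). Against DMSO, OASL was called lower with YKL-5-124 (-0.62 ± 0.088) and samuraciclib (-1.13 ± 0.092). DDX60 had -0.037 ± 0.081 with YKL-5-124 and fell with samuraciclib (-0.86 ± 0.086). IFI6 had 0.35 ± 0.11 with YKL-5-124 and -0.26 ± 0.12 with samuraciclib, neither called. Of the calls between the compounds, IFI6 fell under the threshold without YKL-5-124 3 (0.49) and IFITM2 without samuraciclib 3 (-0.49). OASL did so without samuraciclib 2 (0.45) or YKL-5-124 2 (0.38), by DESeq2 (0.498) and in the 6 libraries not low in RN7SL2 (0.32).

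**Figure D5:**
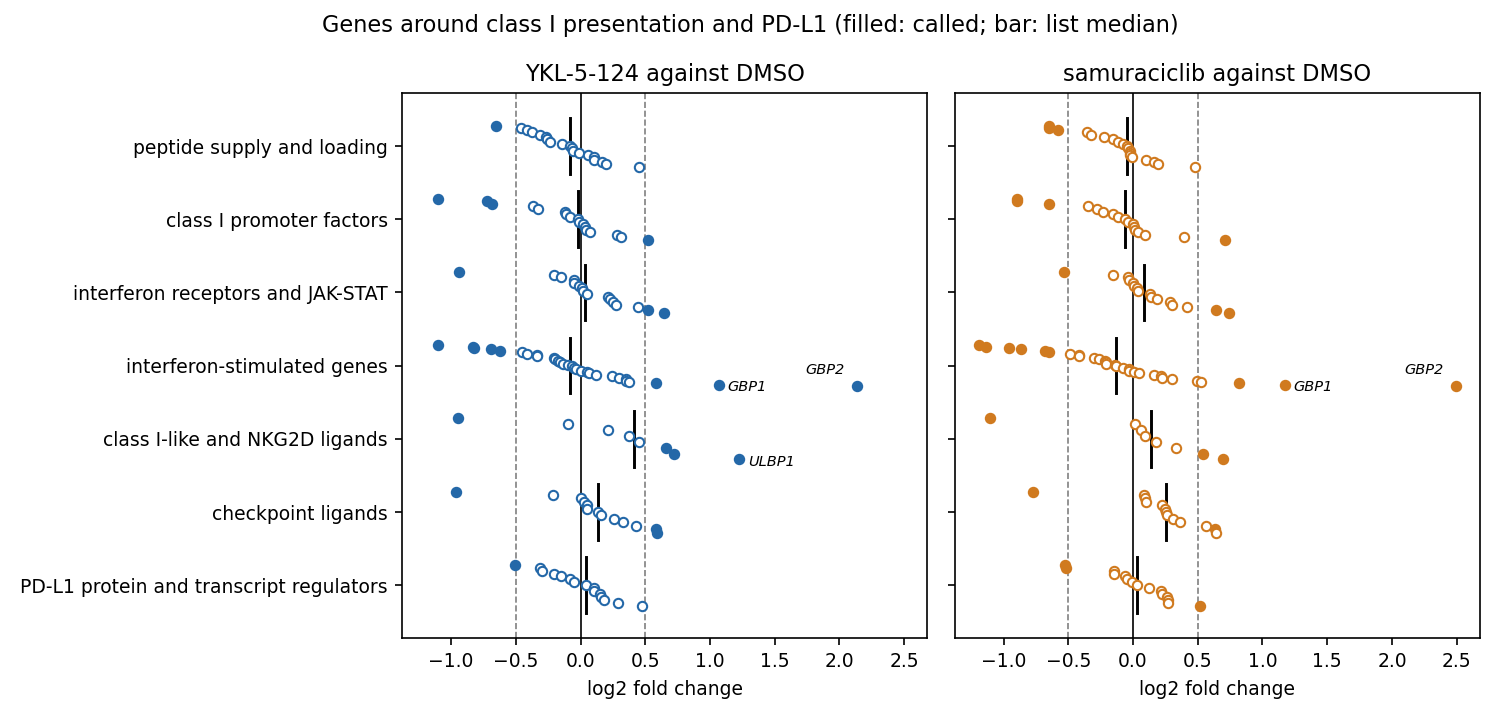
Log2 fold change (horizontal axes) of the genes of 7 lists around class I presentation and PD-L1, with YKL-5-124 and with samuraciclib against DMSO; points are genes, filled where called, black bars the list median and dashed lines the fold threshold. GBP2 lies farthest to the right in both panels, at 2.14 and 2.49, and every list has called genes on at least 1 side.

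Class I-like molecules and ligands of the activating receptor NKG2D had 8 of 14 genes tested. With YKL-5-124 3 rose and 1 fell (median 0.41), and with samuraciclib 2 rose and 1 fell (median 0.14). HFE, a class I-like molecule of iron homeostasis, fell from 13.5 ± 0.103 CPM to 6.98 ± 0.558 CPM with YKL-5-124 (-0.95 ± 0.10) and to 6.27 ± 0.107 CPM with samuraciclib (-1.10 ± 0.10). MR1, which presents vitamin B metabolites to MAIT cells, rose with YKL-5-124 (0.66 ± 0.081, adjusted p = 2.19e-06) and had 0.33 ± 0.082 with samuraciclib. The NKG2D ligand gene ULBP1 rose with YKL-5-124 from 2.40 ± 0.392 to 5.67 ± 0.518 CPM (1.23 ± 0.16, adjusted p = 4.36e-06), and was higher than with samuraciclib by 1.05 ± 0.16 (adjusted p = 0.00011). ULBP2 rose with samuraciclib (0.54 ± 0.065, adjusted p = 2.36e-06) and had 0.45 ± 0.065 with YKL-5-124. ULBP3, named here after its values were seen, rose with YKL-5-124 (0.72 ± 0.14) and samuraciclib (0.69 ± 0.14).

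Among other checkpoint ligands, 13 of 20 were tested, with 2 higher and 1 lower with YKL-5-124 (median 0.14) and 1 higher and 1 lower with samuraciclib (median 0.26). The butyrophilin genes split, BTN2A1 rising with YKL-5-124 (0.58 ± 0.065) and samuraciclib (0.63 ± 0.065) and BTN3A1 falling (-0.96 ± 0.14 and -0.77 ± 0.14). VSIR, the gene of VISTA, rose with YKL-5-124 (0.59 ± 0.074, adjusted p = 3.23e-06). PDCD1LG2, which encodes the PD-1 ligand PD-L2, had 25 to 53 counts per library and log2 fold changes of 0.26 ± 0.25 with YKL-5-124 (adjusted p = 0.421) and 0.56 ± 0.25 with samuraciclib (adjusted p = 0.0731). The latter passed the test without DMSO 1 (0.80) and without samuraciclib 3 (0.71). CD276, the gene of B7-H3, was higher with samuraciclib (0.37 ± 0.050, adjusted p = 1.01e-05) but under the fold threshold. CD276 was also lower with YKL-5-124 than with samuraciclib (-0.32 ± 0.050, adjusted p = 0.000185), again under the threshold.

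Of 15 known regulators of PD-L1, 0 rose and 1 fell with YKL-5-124, and 2 fell with samuraciclib, with medians of 0.040 and 0.028. At an unadjusted p under 0.05 by edgeR, 6 were higher with YKL-5-124, of which DESeq2 called none. STUB1, a ubiquitin ligase, fell with YKL-5-124 (-0.51 ± 0.065) and samuraciclib (-0.53 ± 0.065). COPS5, which removes ubiquitin from PD-L1, fell with samuraciclib (-0.51 ± 0.055). Each of these calls was lost when a single library was left out. STUB1 fell short of the threshold with YKL-5-124 without DMSO 2 (-0.49) or YKL-5-124 2 (-0.44), and with samuraciclib without samuraciclib 2 (-0.46). COPS5 did so without DMSO 2 (-0.48) or samuraciclib 1 (-0.48). CMTM6, which keeps PD-L1 at the cell surface, had 0.10 ± 0.047 with YKL-5-124 and 0.27 ± 0.047 with samuraciclib (adjusted p = 0.000132), under the fold threshold.

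Lists of other cell types gave few called genes. Of 10 class II genes and partners, 6 had 0 counts in every library and 1 was tested and not called, the list summing to 0.655 to 1.51 CPM over all libraries. In the leukocyte list the single gene tested, CD14 (42 to 85 counts), was called higher with YKL-5-124 than with samuraciclib (0.54 ± 0.18, adjusted p = 0.0318) and in no comparison with DMSO. That call was lost without any 1 samuraciclib library or YKL-5-124 3 (adjusted p of 0.056 to 0.139). Of 3 stromal and endothelial genes tested, CDH5 fell with samuraciclib (-0.50 ± 0.081), but not without DMSO 3 (-0.48) or samuraciclib 3 (-0.42). The squamous list had 2 of 12 higher and 2 lower with YKL-5-124 and 2 higher and 1 lower with samuraciclib. E-cadherin, CDH1, rose with YKL-5-124 (1.00 ± 0.047) and samuraciclib (0.80 ± 0.047), and KRT17 rose by 0.60 ± 0.045 with each. KRT15 fell by 0.86 ± 0.064 and 0.84 ± 0.064 on the log2 scale, and KRT14 was lower with YKL-5-124 than with samuraciclib (-0.77 ± 0.089). Against DMSO the fall of KRT14 with YKL-5-124 lay at the threshold (-0.50 ± 0.090) and was lost without DMSO 2 (-0.47) or YKL-5-124 3 (-0.42).

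By the likeness of their levels over the 9 libraries, 3 genes were taken for each of 3 members among the 9196 genes whose mean reached 10 CPM. The 9 points fall into 3 groups, so that these correlations are a description and carry no test. For CD274 they were GATC (Pearson's r = 0.994), NPTN (0.992) and USP4 (0.991), with log2 fold changes of 0.11, 0.18 and 0.27 with YKL-5-124 and 0.21, 0.34 and 0.53 with samuraciclib. For HLA-B they were COPS6 (0.943), TIGD5 (0.930) and NUTM2B-AS1 (0.922), and for B2M BLOC1S2 (0.930), HYLS1 (0.925) and CREM (0.912). The genes like CD274 changed less than CD274 itself, in the same order of groups.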

How the data were processed

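Poly(A)-selected RNA of 9 libraries was sequenced in read pairs. Per the labels and the study's methods, the authors aligned reads to GRCh38 with HISAT2 and assigned them with featureCounts 2.0.6 to GENCODE genes, and deposited raw counts per gene. The annotation release, the strand setting and the treatment of multiply matching reads are not given in the sources used here. Of 58929 genes, 25347 had no counts, and filterByExpr of edgeR 4.0.16 kept 16065.

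Counts were scaled with TMM factors and tested with edgeR's two-sided quasi-likelihood F-test (R 4.3.3) in 1 fit of the 3 groups without covariates, for 3 comparisons. The biological coefficient of variation was 0.0631. The SE is the log2 fold change divided by the square root of F, and intervals are 95%. RPKM was computed from the gene lengths in the table. Tested on simulated data over 16065 genes, the fit recovered 64.2% to 70.1% of 1.5-fold and 88.1% to 94% of 2-fold changes, with 7 or 8 false calls per comparison. Promoters came from RefSeq (GRCh38.p14) and were aligned with Biopython 1.88.

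The members and lists were chosen with earlier results of these data known. By rule, the text names all 9 members, up to 4 called genes per list with the smallest adjusted p, genes called against the direction of most in their list, a fixed set of regulators, and the 3 genes most like HLA-B, B2M and CD274. Some genes that the rule names are not reported here. Alternatives were DESeq2 1.42.0, scaling by library size alone, other filters, no fold threshold, a replicate block, leaving out each library, and leaving out the libraries low in RN7SL2.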

Additional observations from a re-analysis of the deposited data

How the results depend on the processing

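Of 516 log2 fold changes of members recomputed under the alternatives, 487 kept their direction and call, 5 lost the call, 11 were called only because the fold threshold was dropped, and 13 changed sign, all of the last in values near 0. With no fold threshold, members called higher and lower were 4 and 2 with YKL-5-124 against DMSO, 3 and 3 with samuraciclib against DMSO, and 2 and 2 between the compounds, where all genes called were 7919, 7087 and 4003 (3506, 2847 and 1112 with it) and genes of the context lists 70, 70 and 49 (28, 31 and 8 with it). Scaling by library size alone left 0 members lower between the compounds, and turned TAPBP with samuraciclib to 0.021 and, between the compounds, TAP1 to 0.0051 and TAP2 to 0.015. It moved the median of all genes with YKL-5-124 from 0.014 to 0.14, with the share of calls that were higher going from 54.5% to 72.7% with YKL-5-124, from 46.1% to 57.1% with samuraciclib and from 64.5% to 79.5% between the compounds. DESeq2 called 5 context genes between the compounds. B2M with YKL-5-124 was at -3.62e-05 with no filter on low counts and at -0.030 without the 3 libraries low in RN7SL2, where TAPBP with samuraciclib was at 0.043. The cause of these shifts was not tested.

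Leaving out 1 library at a time, the log2 fold change with YKL-5-124 ranged from -0.013 to 0.071 in HLA-B, from -0.031 to 0.049 in HLA-C and from -0.010 to 0.057 in B2M, and with samuraciclib from -0.13 to 0.020 in TAPBP. Members called higher with samuraciclib numbered 1 to 2, members lower between the compounds 0 to 1, and context genes called between the compounds 5 to 9. Deviations from the group means correlated at -0.056 to 0.17 between libraries of the same replicate number. Between libraries of different numbers they correlated at -0.12 to 0.15. The highest values joined the libraries low in RN7SL2: DMSO 3 with samuraciclib 2 (0.15) and YKL-5-124 2 (0.15), and samuraciclib 2 with YKL-5-124 2 (0.17). These values do not settle whether the numbers pair the samples. A replicate block gave 3494, 2825 and 1101 genes called in the 3 comparisons, and the same number of members. HLA-F, with 52 to 140 counts per library, is the member whose precision depth limits most, with an SE of 0.15 against 0.043 for HLA-E.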

Other observations

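Beside the members, pseudogenes of the class I region were tested, chosen after their values were seen. HLA-H had a log2 fold change of -0.0048 ± 0.26 with YKL-5-124 and 0.53 ± 0.25 with samuraciclib (edgeR, adjusted p = 0.0878). HLA-L had 1.05 ± 0.47 (adjusted p = 0.0727) and 0.76 ± 0.49 (adjusted p = 0.217). Neither was called in these comparisons.

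Within a library, the ratio of HLA-E to HLA-C counts was 0.334 ± 0.0095 in DMSO, 0.340 ± 0.029 with samuraciclib and 0.374 ± 0.025 with YKL-5-124 (SD, n = 3). Like the other ratios, it was not set in advance. It was above DMSO in each YKL-5-124 library (two-sided exact permutation p = 0.1, the smallest possible) and overlapped DMSO with samuraciclib (exact permutation p = 0.8).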
